A study of Homo sapiens with 4 samples.

Results

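The 9 metallothionein genes MT1A, MT1E, MT1F, MT1G, MT1H, MT1M, MT1X, MT2A and MT3 and the gene MTF1 were followed in U251-MG, an established human glioblastoma line. MTF1 encodes a zinc-sensing activator of MT1 and MT2 genes. All 10 genes were found by symbol among the 61806 genes of the count table. The cells had been infected with lentivirus made from the pCDH-CMV-MCS-EF1-puro vector, which carried either the COL8A1 cDNA (COL8A1 cells) or the negative control (NC cells). COL8A1 encodes a chain of collagen VIII. Each group had 2 libraries of total RNA from cells grown in DMEM with fetal bovine serum, and the labels give both groups the genotype WT. The labels do not state whether a group was 1 infected population or how the cells were selected, nor whether its libraries came from separate cultures, and if they did not, the replicate spread behind each p-value is technical.

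Metallothioneins are small intracellular proteins very rich in cysteine, whose thiol groups bind zinc, copper and cadmium. They buffer free zinc and copper and bind toxic metals, and the genes lie side by side in 1 cluster. MTF1 is a zinc finger transcription factor that binds metal response elements in the promoters of MT1 and MT2 genes when zinc is high. It also drives SLC30A1, the zinc exporter of the plasma membrane. In brain, MT1 and MT2 proteins are abundant in astrocytes, while MT3 is mainly a brain form and was first described as a factor that inhibits neurite growth.

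The coding sequences are shown for the 4 metallothioneins that had more than 300 reads in each library. They were cut from GENCODE release 29 transcripts, and capitals mark the in-frame TGC and TGT codons, which encode cysteine.

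MT2A: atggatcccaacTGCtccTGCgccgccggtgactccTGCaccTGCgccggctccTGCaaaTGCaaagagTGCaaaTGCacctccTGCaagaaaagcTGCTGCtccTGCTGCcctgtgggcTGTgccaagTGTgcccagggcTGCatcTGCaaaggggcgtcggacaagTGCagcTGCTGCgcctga
MT1E: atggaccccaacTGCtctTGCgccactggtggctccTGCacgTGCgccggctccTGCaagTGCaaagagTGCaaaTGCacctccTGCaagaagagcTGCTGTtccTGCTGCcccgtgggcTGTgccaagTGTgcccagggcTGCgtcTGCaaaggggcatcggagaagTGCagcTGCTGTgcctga
MT1X: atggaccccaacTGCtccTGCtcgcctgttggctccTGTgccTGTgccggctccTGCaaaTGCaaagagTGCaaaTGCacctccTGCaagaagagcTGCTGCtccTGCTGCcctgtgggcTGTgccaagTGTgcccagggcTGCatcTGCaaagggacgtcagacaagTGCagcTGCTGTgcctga
MT1F: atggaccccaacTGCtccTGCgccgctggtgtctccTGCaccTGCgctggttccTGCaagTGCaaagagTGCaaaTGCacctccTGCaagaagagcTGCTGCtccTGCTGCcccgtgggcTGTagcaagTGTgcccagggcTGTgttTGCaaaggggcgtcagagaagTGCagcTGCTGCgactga

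The 4 reading frames of MT2A, MT1E, MT1X and MT1F were each 186 bases long, and 20 of their 61 codons before the stop, or 32.8%, encode cysteine. Among those 4 expressed genes the coding sequences were 88.7% to 92.5% identical over 6 pairs, and among the 7 MT1 genes 88.7% to 94.6% over 21 pairs.

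Such likeness bears on how reads are assigned, so the transcripts were cut into windows and each window was looked up on both strands in the transcripts of all other genes. Of the 50-base windows of the coding transcripts, 4.2% for MT2A, 7.1% for MT1E and 3.3% for MT1F also occurred in another gene, and at 100 bases 0.0% did for each of these 3 genes. MT1X was the exception, with 43.6% of its 50-base and 30.8% of its 100-base windows shared, mostly with AC026461.1, a noncoding gene on the same strand that shares 321 of the 1773 exon bases of MT1X. AC026461.1 had 0 counts in each library. The sources used here do not give the read length or how reads touching more than 1 gene were treated, so the level of MT1X is the least certain of the 4. In MTF1, 0.9% of the 50-base windows were shared, and its exons overlapped no exon of another annotated gene.

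The library totals were 31605164 and 27923796 counts in COL8A1 cells, against 30895414 and 33576228 counts in NC cells. COL8A1 itself had 4290 and 2259 counts in COL8A1 cells, against 77 and 82 in NC cells, the direction of the labels (log2 fold change 5.45, SE 0.315, edgeR adjusted p = 0.0681). Of 10 glioma and astrocyte markers 8 passed the filter on low counts, all 8 with a positive log2 fold change, where 8555 of all 17030 genes tested had one. In edgeR 0 of the 8 passed the adjusted threshold, where 0.0117% of all genes tested did. At an unadjusted p under 0.05, 3 were higher, against 3.44% of all genes. DESeq2 called 1, against 1.06% of all genes, and it was the glutamate transporter gene SLC1A3 (log2 fold change 1.04, SE 0.105, edgeR adjusted p = 0.165, DESeq2 adjusted p = 2.52e-10). The other 2 markers, OLIG2 and AQP4, were at 0 in all 4 libraries. GFAP was low, with 65 and 51 counts in COL8A1 cells and 21 and 19 in NC cells. Of 10 markers of other cell types 5 passed the filter. PTPRC of leukocytes, EPCAM of epithelia and RBFOX3 of neurons had at most 6 counts in any library, whereas SYT1 of neurons had 676 to 969. Of the endothelial genes, CDH5 had 1670 to 2487 counts, but PECAM1 had 5 to 16 and VWF 14 to 39.

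The first question was which metallothionein genes these cells transcribe. The cluster of 16 annotated loci, 9 members and 7 other genes and pseudogenes, lies on chromosome 16 from 56565049 to 56684196 (119.1 kb, GRCh38, GENCODE release 29). Only MT2A, MT1E, MT1F and MT1X had more than 300 counts in each library. Another 10 loci were at 0 in all 4 libraries, among them the members MT1A, MT1H and MT1M, and the remaining MT3 and MT1G had at most 5 counts in any library.

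MT2A, from 56608199 to 56609497 on the plus strand, encodes the main metallothionein 2 of human cells. It had 8506 and 7345 counts in COL8A1 cells, against 8760 and 9449 in NC cells. MT1E, from 56625475 to 56627112 on the plus strand, had 3753 and 3385 counts in COL8A1 cells, against 3805 and 4443 in NC cells. Its direct neighbours on either side in the cluster, the pseudogene MT1L and the coding gene MT1M, were both at 0 in every library.

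MT1X closes the cluster, from 56682424 to 56684196 on the plus strand. It had 1887 and 1505 counts in COL8A1 cells, against 1580 and 1910 in NC cells. MT1F, from 56657694 to 56660698 on the plus strand, had 599 and 391 counts in COL8A1 cells, against 540 and 589 in NC cells. Reads were thus found in 4 separate places of the cluster, with loci at or near 0 between them, and the same 4 genes carried them in both groups.

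**Figure D1:**
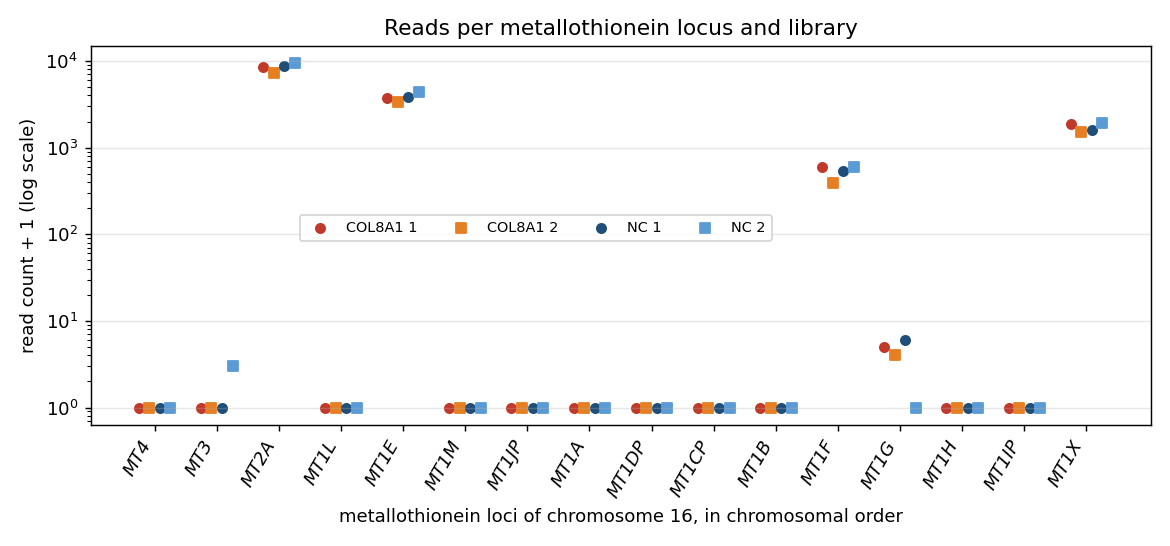
Read counts plus 1 (log axis) of the 16 metallothionein loci of chromosome 16 in chromosomal order, with 1 point per library (COL8A1 replicates 1 and 2, then NC replicates 1 and 2). MT2A, MT1E, MT1F and MT1X stand above 300 counts in all 4 libraries, 10 loci lie at 0, and MT3 and MT1G reach at most 5 counts.

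MT3 had 0 and 0 counts in COL8A1 cells, against 0 and 2 in NC cells. MT1G, the only member on the minus strand of the cluster, had 4 and 3 counts in COL8A1 cells, against 5 and 0 in NC cells. The 5 members MT1A, MT1G, MT1H, MT1M and MT3 did not pass the filter on low counts and were not tested. A count of 0 allows up to 3 counts, which is 0.0943 and 0.108 CPM (counts scaled to library size) in the COL8A1 libraries and 0.0977 and 0.0889 CPM in the NC libraries. This limit covers counting error only. Of 11 other metallothionein loci that were looked up, the pseudogenes MT1XP1 and MT1P3, which lie outside the cluster, had 0 to 6 and 0 to 3 counts per library. MT2P1, which shares 20 of the 50-base windows of MT2A, was not among the 11. MT4 of squamous epithelia, MT1B and the pseudogenes MT1L, MT1DP, MT1JP, MT1CP, MT1IP and MT1P1 were at 0, as was MT1HL1.

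RefSeq promoter entries (GRCh38.p14) were found for 4 of the 10 members, MT2A, MT1X, MT1H and MTF1, and for MT1B and MT4. The 250 bases before the annotated start are shown for the strongly expressed MT2A, for MT1X and for MT1H, which had 0 reads. The RefSeq starts of MT2A and MT1X lie downstream of the GENCODE starts given for them. Capitals mark matches to the core of the metal response element, the site that MTF1 binds, searched as TGCACNC and TGCGCNC on both strands, and no match overlapped another.

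MT2A promoter, chr16:56608334-56608583, plus strand: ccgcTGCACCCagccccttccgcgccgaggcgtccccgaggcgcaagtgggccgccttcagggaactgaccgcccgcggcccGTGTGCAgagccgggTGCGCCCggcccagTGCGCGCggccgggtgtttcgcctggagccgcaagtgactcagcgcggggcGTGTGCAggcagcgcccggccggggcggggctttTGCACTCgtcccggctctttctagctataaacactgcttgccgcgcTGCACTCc
MT1X promoter, chr16:56682220-56682469, plus strand: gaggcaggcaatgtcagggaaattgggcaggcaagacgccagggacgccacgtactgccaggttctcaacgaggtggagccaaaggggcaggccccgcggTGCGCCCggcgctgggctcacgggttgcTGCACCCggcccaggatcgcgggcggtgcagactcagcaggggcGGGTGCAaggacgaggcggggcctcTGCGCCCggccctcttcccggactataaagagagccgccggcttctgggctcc
MT1H promoter, chr16:56669564-56669813, plus strand: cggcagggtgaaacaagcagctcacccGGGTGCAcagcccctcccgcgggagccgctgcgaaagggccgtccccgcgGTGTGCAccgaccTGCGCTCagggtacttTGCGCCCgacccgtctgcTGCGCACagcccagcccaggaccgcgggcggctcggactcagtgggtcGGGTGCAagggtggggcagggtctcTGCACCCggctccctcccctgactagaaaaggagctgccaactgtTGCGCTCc

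MT2A held 7 matches, 5 on the forward and 2 on the reverse strand, and MT1X held 4. MT1H, at 0 counts in each library, held 8, and MT1B and MT4, also at 0, held 3 each. Among 35116 RefSeq promoters cut to the same 250 bases, 24.83% held at least 1 match, 1.58% at least 3, 0.37% at least 4 and 0.03% at least 7. The promoter of MTF1 held 0. Matches were therefore frequent in the metallothionein promoters with an entry, with reads or without, and a match in the sequence is no evidence that the site is bound.

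To compare levels between genes, CPM were divided by the union of annotated exons in kb. MT2A was highest, at 206 and 203 CPM per kb in the COL8A1 libraries and 219.7 and 216 CPM per kb in the NC libraries. MT1E followed at 112 to 125 CPM per kb over the 4 libraries, MT1X at 29.03 to 33.5 and MT1F at 7.45 to 9.97. MTF1, spread over 8024 exon bases, was at 5.71 to 7.12 CPM per kb. No neighbouring genes in this order overlapped in their ranges over the libraries. The order was the same with the length of the longest transcript and of the longest coding transcript, but the levels depended on the length used. MT1X was at 103 CPM per kb on average with the longest coding transcript of 538 bases, against 31.2 with the union of 1773 bases. In MT1X and MT1E the longest coding transcript has 2 exons. It is not the source of the reading frame shown, which spans 3 coding exons. With the longest coding transcript MT1F was at 24.6 CPM per kb on average, against 8.99 with the union. MT2A was at 349 against 211, MT1E at 170 against 118 and MTF1 at 6.50 against 6.46.

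The second question was whether these levels differed between the vectors. Of the 5 members that passed the filter, 0 were called by edgeR's quasi-likelihood test at an adjusted p under 0.05, where 0.0117% of all 17030 genes were called. At an unadjusted p under 0.05 the members called were also 0, against a background of 6.07%, and DESeq2 called 0 with a background of 1.06%. With limma-voom 0 members were called, against 0.0117% of all genes. The 4 metallothioneins and MTF1 had fitted fold changes of 0.938 to 1.05.

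MT2A was at 267 and 264 CPM in COL8A1 cells, against 285 and 280 CPM in NC cells. Both COL8A1 libraries lay below both NC libraries, by a small margin. The means were 266 ± 2.21 CPM in COL8A1 cells and 283 ± 3.75 CPM in NC cells (SD, n = 2 each), with a log2 fold change of −0.09 (SE 0.056, edgeR adjusted p = 0.848). The 95% interval of the fold ran from 0.848 to 1.04.

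MT1E was at 118 and 122 CPM in COL8A1 cells, against 124 and 132 CPM in NC cells. Here too the groups did not overlap, with COL8A1 below NC. The means were 120 ± 2.70 CPM in COL8A1 cells and 128 ± 5.47 CPM in NC cells (SD, n = 2 each), with a log2 fold change of −0.09 (SE 0.072, edgeR adjusted p = 0.861) and a 95% interval of the fold from 0.823 to 1.07. MT2A and MT1E were the 2 of 5 tested members whose groups did not overlap. Among all genes tested the groups did not overlap in 37.5%, with COL8A1 below NC in 18.6% and above NC in 18.9%, so such separation is common in these 4 libraries.

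MT1X was at 59.3 and 54.1 CPM in COL8A1 cells, against 51.5 and 56.6 CPM in NC cells. The groups overlapped, and the log2 fold change was 0.07 (SE 0.103, edgeR adjusted p = 0.926), with a 95% interval of the fold from 0.870 to 1.27. MT1F was at 18.8 and 14.1 CPM in COL8A1 cells, against 17.6 and 17.5 CPM in NC cells. The COL8A1 libraries stood on either side of both NC libraries, with a log2 fold change of −0.09 (SE 0.176, edgeR adjusted p = 0.947), and the 95% interval of the fold was the widest of the 5, from 0.681 to 1.295. Without COL8A1 replicate 2 the log2 fold change of MT1F was 0.10, and without COL8A1 replicate 1 it was −0.32.

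MTF1 (chromosome 1, 37809567 to 37859620, minus strand) was at 45.8 and 57.1 CPM in COL8A1 cells, against 53.4 and 50.9 CPM in NC cells. The COL8A1 libraries again lay on either side of the NC libraries. The means were 51.5 ± 8.01 CPM in COL8A1 cells and 52.2 ± 1.75 CPM in NC cells (SD, n = 2 each), with a log2 fold change of −0.02 (SE 0.136, edgeR adjusted p = 0.991) and a 95% interval of the fold from 0.770 to 1.26. Without COL8A1 replicate 1 the log2 fold change of MTF1 was 0.13, and without COL8A1 replicate 2 it was −0.19. The RNA level of MTF1 is not a measure of its activity, which zinc binding and its place in the cell control.

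**Figure D2:**
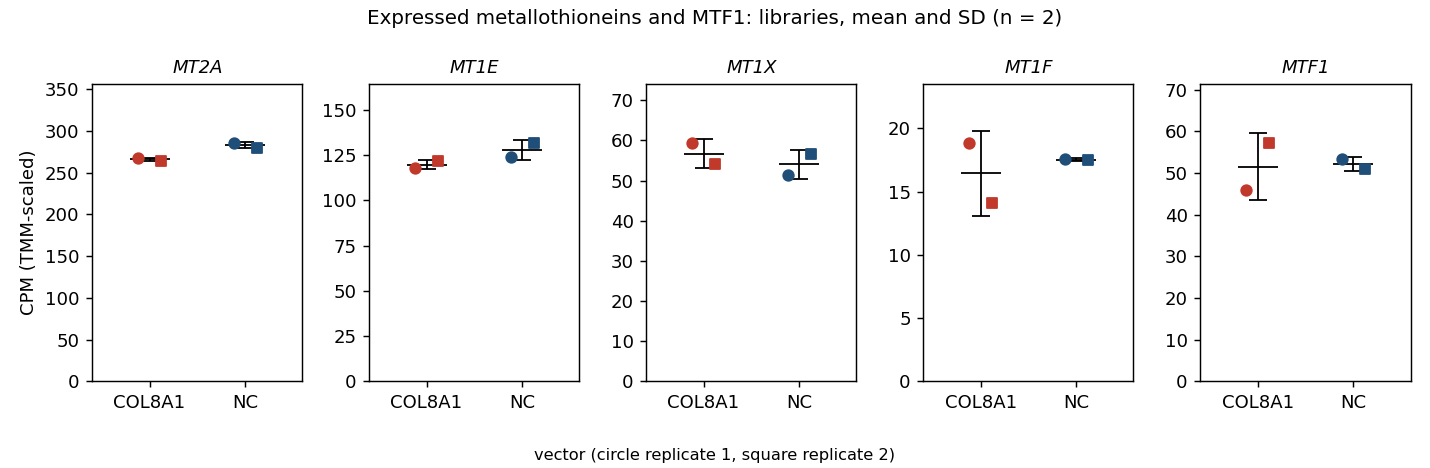
TMM-scaled CPM of MT2A, MT1E, MT1X, MT1F and MTF1 in COL8A1 and NC cells, each panel with its own axis from 0, with 1 point per library (circle replicate 1, square replicate 2) and the mean with SD (n = 2). The COL8A1 libraries of MT2A (267 and 264 CPM) lie just under those of NC (285 and 280 CPM), and those of MT1F and MTF1 lie on either side of the NC libraries.

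Because the sum over the family does not depend on how counted reads were split between its members, the counts of the 9 metallothioneins were added. Whether reads that match more than 1 gene were counted is not given, and any left out are missing from the sum too. The sum was 464 and 454 CPM in COL8A1 cells, against 479 and 486 CPM in NC cells, which is 0.0467% and 0.0452% of all counts in COL8A1 cells and 0.0476% and 0.0488% in NC cells. Both COL8A1 libraries were lower, as for 18.6% of all genes tested, and MT2A alone gave 57.6% to 59.6% of the summed counts. The means of the sum were 459 ± 6.55 CPM in COL8A1 cells and 482 ± 5.19 CPM in NC cells (SD, n = 2 each). Their ratio was 0.952, for which no test was made. The 7 MT1 genes together were at 196 and 190 CPM in COL8A1 cells, against 193 and 206 CPM in NC cells, where the groups overlapped.

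The make-up of the family was compared between libraries as shares of its counts, which are not corrected for length and so do not rank the genes by level. MT2A took 57.7% (95% exact Clopper-Pearson interval 56.9 to 58.5) and 58.2% (57.3 to 59.0) of the metallothionein counts in COL8A1 cells, against 59.6% (58.8 to 60.4) and 57.6% (56.9 to 58.4) in NC cells. Its share overlapped between the groups. MT1E took 26.1% ± 0.960 in COL8A1 cells and 26.5% ± 0.849 in NC cells, and MT1F took 3.58% ± 0.683 in COL8A1 cells and 3.63% ± 0.0587 in NC cells (SD, n = 2 each). The share of MT1X was 12.8% and 11.9% in COL8A1 cells, against 10.8% and 11.7% in NC cells. Those values did not overlap, but the closest pair differed by less than their counting intervals (11.4 to 12.5 and 11.2 to 12.2), and 2 libraries against 2 cannot give a two-sided exact permutation p under 0.333. The intervals cover counting error only.

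**Figure D3:**
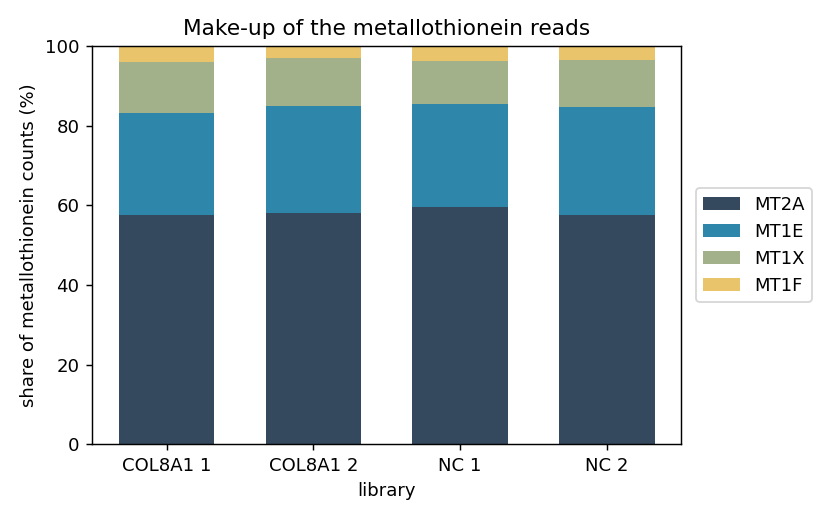
Share of MT2A, MT1E, MT1X and MT1F in the metallothionein counts of each library (stacked bars, in %, COL8A1 replicates 1 and 2, then NC replicates 1 and 2). MT2A takes 57.6% to 59.6% in all 4 libraries, and the shares, not corrected for length, are close in both groups.

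The spread among the libraries differed between members. On the log2 CPM scale, MT2A had a range of 0.11 over the 4 libraries, where genes within a factor of 2 of its level had a median range of 0.18. The range was also below that of genes of like level for MT1E (0.16, against 0.20) and MT1X (0.20, against 0.24). It was above it for MTF1 (0.32, against 0.24) and for MT1F (0.42, against 0.35), the member with the fewest reads of the 5. The pattern nearest to that of MT2A, by Euclidean distance of log2 CPM centred on the gene mean over the 4 libraries, was that of CPSF1 (0.00681), followed by SSR4 (0.00915), UBE2N (0.0140), ELK1 (0.0148) and ZNF280C (0.0151), among 11272 other genes with a mean of at least 5 CPM. Such near patterns are many, since 1179 genes lay within 0.1. MT1E was at 0.0923 from MT2A, and 8.46% of the genes were nearer, whereas for MT1X, MTF1 and MT1F 43.4% to 60.8% were nearer.

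The other genes of metal handling were then read from the same fit. Most exporters of the ZnT family move zinc out of the cytosol. In edgeR, 0 of its 7 genes tested (of 10) passed the adjusted threshold, against 0.0117% of all genes tested. At an unadjusted p under 0.05 the count was 0 as well, against 6.07%, and DESeq2 called 0, against 1.06%. The median log2 fold change of the 7 genes was 0.009, against 0.001 over all genes tested. SLC30A1, the exporter that MTF1 drives, was at 95.7 and 106 CPM in COL8A1 cells, against 108 and 106 CPM in NC cells, with a log2 fold change of −0.08 (SE 0.084, edgeR adjusted p = 0.889). That value was −0.005 without COL8A1 replicate 1 and −0.16 without COL8A1 replicate 2. Like MTF1, it showed no separation of the groups beyond the replicate spread. For SLC30A9, of mitochondrial zinc export, the log2 fold change was 0.27 (SE 0.163), with 0.06 without NC replicate 1 and 0.51 without NC replicate 2. For SLC30A3, a vesicular transporter of neurons, it was −0.88 (SE 0.483) at 10 to 28 counts per library.

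In the ZIP importers, which bring zinc into the cytosol, 0 of 10 genes tested of 14 passed in edgeR after adjustment, 2, both lower, had an unadjusted p under 0.05 and DESeq2 called 1 (median log2 fold change −0.07). Over all genes tested edgeR called 0.0117% after adjustment, 2.63% were lower at that unadjusted p, and DESeq2 called 1.06%. The 1 was SLC39A9, a ZIP transporter of the Golgi and plasma membrane, at 69.5 and 45.0 CPM in COL8A1 cells, against 115 and 98.8 CPM in NC cells. Both COL8A1 libraries lay well below NC but also far apart from each other (log2 fold change −0.90, SE 0.23, edgeR unadjusted p = 0.0131 and adjusted p = 0.662, DESeq2 adjusted p = 0.0272). With a library left out its log2 fold change ran from −1.25 (without COL8A1 replicate 1) to −0.62 (without COL8A1 replicate 2). The other of the 2 was SLC39A14, which also carries iron and manganese (log2 fold change −0.23, SE 0.081, edgeR adjusted p = 0.804). For SLC39A7 of the endoplasmic reticulum the log2 fold change was 0.16 (SE 0.082). SLC39A10, which MTF1 represses in mice, was at 79.6 and 80.6 CPM in COL8A1 cells, against 82.8 and 71.6 CPM in NC cells (log2 fold change 0.05, SE 0.101).

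Of 13 copper-handling genes, 0 passed the adjusted threshold in edgeR (0.0117% of all genes) and 0 an unadjusted p under 0.05 (6.07%). DESeq2 called 0 of the 13 (1.06% of all genes), and the median log2 fold change of the list was −0.08. The smallest p-values were those of COX11, of copper insertion into cytochrome oxidase (log2 fold change −0.54, SE 0.264), the copper chaperone ATOX1 (−0.24, SE 0.120) and the importer SLC31A1 (0.17, SE 0.101). The value of COX11 was −0.17 without NC replicate 2 and −0.84 without NC replicate 1. Genes that metals and oxidants induce had 0 of 11 past the adjusted threshold in edgeR and 0 in DESeq2, with 3 lower at an unadjusted p under 0.05, against 2.63% of all genes, and a median of −0.16. The 3 were the heat shock genes HSPA1B and HSPA1A, whose near-identical reads may be shared, and the cystine transporter SLC7A11, with log2 fold changes of −0.20 (SE 0.059), −0.19 (SE 0.068) and −0.27 (SE 0.088).

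Human MT2A also answers to glucocorticoids, so the receptor NR3C1 and genes it induces were listed. Of 10 tested of 12, 0 passed the adjusted threshold in edgeR (0.0117% of all genes) and 0 in DESeq2 (1.06%). At an unadjusted p under 0.05 in edgeR, 1 was higher, the clock gene PER1, against 3.44% of all genes. Its log2 fold change was 0.63 (SE 0.180, edgeR adjusted p = 0.719), and the list median was −0.03. PER1 was at 9.56 and 9.93 CPM in COL8A1 cells, against 5.70 and 6.91 CPM in NC cells. The log2 fold change was 0.55 (SE 0.266) for MAOA and −0.17 (SE 0.086) for NR3C1.

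Of 8 genes that flank the metallothionein cluster, 0 passed the adjusted threshold in edgeR, against 0.0117% of all genes tested. At an unadjusted p under 0.05 the count was 0 as well, against 6.07%, and DESeq2 called 0, against 1.06%. The median log2 fold change of the 8 genes was −0.02. GNAO1, a G protein subunit, OGFOD1, a hydroxylase of ribosomal protein, and NUP93, of the nuclear pore, had the smallest p-values, with log2 fold changes of 0.21 (SE 0.116), −0.08 (SE 0.074) and −0.07 (SE 0.076). NUP93 was at 180 and 192 CPM in COL8A1 cells, against 188 and 202 CPM in NC cells.

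**Figure D4:**
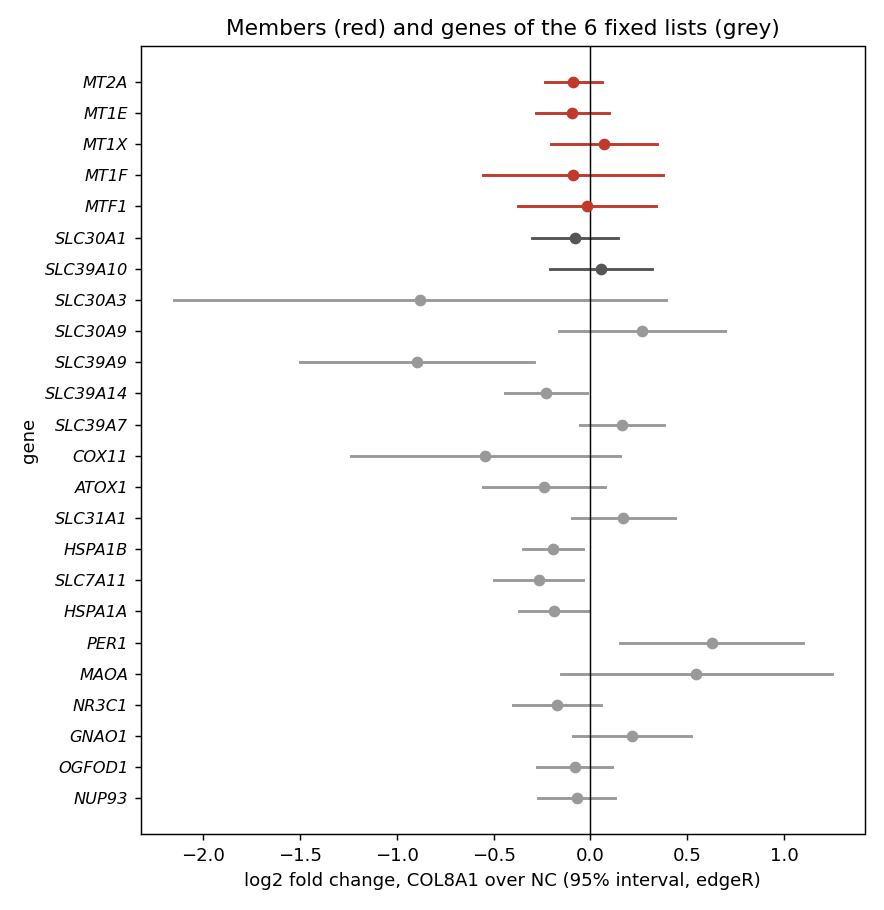
Log2 fold changes of COL8A1 over NC cells with 95% intervals from edgeR for MT2A, MT1E, MT1X, MT1F and MTF1 (red), SLC30A1 and SLC39A10 (dark grey) and the 3 genes of smallest p-value in each of the 6 lists (grey). The intervals of the 5 members all span 0, and that of MT2A, from −0.24 to 0.06, is the narrowest of the members.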

How the data were processed

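Raw read counts per gene were deposited by the authors, 1 column per library, with no normalization. Per the submitters' processing notes, reads were processed with HISAT2 2.2.1, Trim Galore 0.6.9 and featureCounts (version given as 0.3) on build hg38. The sources used here give no parameters, strand setting or annotation release. Totals were 27923796 to 33576228 counts, and 1 line that named no gene, with no reads, was left out. The processing notes list no step that removes PCR copies.

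Groups came from the sample titles. Counts were tested with edgeR 4.0.16 in R 4.3.3 (filterByExpr, TMM, quasi-likelihood F-test with group as the only term), with Benjamini-Hochberg adjustment over the 17030 genes kept and a threshold of 0.05. The fit had 2 residual and 2.64 prior degrees of freedom. SEs are the size of the log2 fold change over the root of F, so they restate the test, and 95% intervals follow from them. CPM used TMM-scaled library sizes. Log2 CPM for patterns had a prior count of 2. The fits were checked on simulated counts for the recovery of known fold changes, with no bound set on false calls.

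Alternatives were other scaling, filters, DESeq2 1.42.0, limma-voom (limma 3.58.1), the replicate block, and each library left out. Annotation and lengths came from GENCODE 29, promoters from RefSeq. The rule for named genes took all members, the 3 smallest p-values per list, SLC30A1, SLC39A10, exon-overlapping genes, COL8A1, and the 5 patterns nearest MT2A. The members and lists were chosen with earlier results of these data known. Results for 1 marker gene and 1 coding sequence are not reported here.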

Additional observations from a re-analysis of the deposited data

How the results depend on the processing

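The number of metallothionein and MTF1 genes called stayed at 0 under all alternatives run. The number of all genes called was 2, with 17 without a low-count filter, 180 in DESeq2, 1 with the replicate block, and 0 to 3 with a library left out (0 without COL8A1 replicate 1, 1 without NC replicate 1). The replicate numbers share no stated pairing, and deviations of same-numbered libraries correlated at −0.0357 over 17030 genes. In the pathway lists the count was 0, and 1 in DESeq2. With a library left out, log2 fold changes ran from −0.32 to 0.10 for MT1F, −0.19 to 0.13 for MTF1 and −0.051 to 0.16 for SLC39A10. These turned sign for MT1F without COL8A1 replicate 2 (0.10), for MTF1 without COL8A1 replicate 1 (0.13) or NC replicate 1 (0.01), and for SLC39A10 without NC replicate 2 (−0.051), and the cause was not tested. MT2A stayed between −0.11 and −0.08, MT1E between −0.14 and −0.05, and MT1X between 0.002 and 0.14. The same range was 0.08 to 0.24 for SLC39A7, 0.08 to 0.26 for SLC31A1, −0.37 to −0.18 for SLC7A11, 0.35 to 0.78 for MAOA, −0.25 to −0.11 for NR3C1, 0.12 to 0.30 for GNAO1, −0.12 to −0.05 for OGFOD1 and −0.13 to −0.02 for NUP93. The summed metallothionein log2 ratio of −0.07 ran from −0.09 to −0.06 with a library left out and was −0.047 without MT2A. The ratio of MT2A to MT1E per kb was 1.795 with the union of exons and 2.06 with the longest coding transcript, a length added after seeing the data. For MT1E that transcript has 2 exons and is not the source of the reading frame shown. Genes under about 10 counts could not be tested, and 2 libraries a group cannot show small changes, as the intervals give.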
